A study of Mus musculus with 24 samples.

Results

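Macrophages treated with LPS and IFN-γ (M1) and macrophages treated with IL-4 (M2) are usually set against each other. Here both states were set against the same untreated cells (M0), and the genes that both stimuli moved in the same direction were collected. The contrast of the mean of M1 and M2 with M0 used 12 of the 24 libraries of the study, 4 of each state, all without inhibitor. A gene counted as common when edgeR's quasi-likelihood test called it in M1 and in M2, each against M0, with the same sign, at a Benjamini-Hochberg adjusted p under 0.05 over all 14692 genes tested. By this rule 2979 of the 14692 genes were common, 1464 higher and 1515 lower in both states, and all of them were also called in the contrast of the mean with M0. The same 4 M0 libraries stand in both comparisons, so a chance deviation of these libraries moves both changes the same way and adds to the agreement.

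All groups were peritoneal macrophages of mice. M1 cells received LPS and IFN-γ, M2 cells received IL-4, and M0 cells were the control. The labels used here name no genotype, strain, age, dose or duration of treatment. Each library pooled cells of 2 to 3 mice to reach 50000 cells, and the 4 libraries of a group are labelled as independent. The other 12 libraries are the same 3 states with ONX-0914, an inhibitor of the immunoproteasome. They did not enter the contrasts that chose the genes, but they shared the filter and the dispersion fit. The same measure is given in them below.

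LPS, a component of bacterial outer membranes, signals through TLR4 to NF-κB, AP-1 and interferon response factors. IFN-γ signals through its receptor and the kinases JAK1 and JAK2. IL-4 signals through the IL-4 receptor and JAK kinases to STAT6. The hallmark genes of the states differ, Nos2 for M1 and Arg1 for M2, while both stimuli engage JAK kinases and both change growth, metabolism and the secreted products of the macrophage.

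Total counts per library ran from 18230924 to 20958871 in M1, from 19066090 to 21486705 in M2 and from 18480233 to 21821483 in M0. Levels below are counts per 1e6 counts (CPM) after TMM scaling. TMM factors were 0.793 to 0.849 in M1, 1.05 to 1.07 in M2 and 1.08 to 1.11 in M0. M1 replicate 2 stood apart, with 0.3% mitochondrial counts against 1.07% to 1.14% in the other M1 libraries. The total counts of common genes are given with and without it, as are the calls of named genes that it moves. Leaving out M1 replicate 2 also moved 10 counts within gene lists, and not all of these are given without it. The labels fitted the hallmark genes. Nos2, the inducible nitric oxide synthase, had 1800, 2071, 2376 and 1668 CPM in M1, 0.0459, 0, 0 and 0 CPM in M2, and 0.0483, 0.049, 0.0483 and 0.0414 CPM in M0. Arg1, the arginase of IL-4-treated macrophages, had 8.21, 9, 9.64 and 7.43 CPM in M1, 1775, 2133, 2006 and 1873 CPM in M2, and 67.4, 77.2, 79.6 and 66 CPM in M0. Neither was a common gene: Nos2 was high in M1 alone, and Arg1 was high in M2 and below M0 in M1. The macrophage genes Lyz2, Cd68 and Csf1r averaged 8588, 2267 and 305.7 CPM in M1, 10110, 1819 and 743.8 CPM in M2, and 10500, 1880 and 384.4 CPM in M0. In bulk samples, fewer cells of a type and less RNA per cell cannot be told apart.

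M1 moved more genes than M2, and the common genes were a minority of either. In M1, 5084 genes (34.6% of those tested) were higher and 5030 (34.2%) lower than in M0. In M2, 2744 genes (18.7%) were higher and 2571 (17.5%) lower. The 1464 common rises were 9.96% of the genes tested, 28.8% of the M1 rises and 53.4% of the M2 rises. The 1515 common falls were 10.3% of the genes tested, 30.1% of the M1 falls and 58.9% of the M2 falls. Counts within gene lists below are to be read beside 9.96% higher and 10.3% lower over all genes. The contrast of the mean of M1 and M2 with M0 called more, 4466 rises (30.4%) and 4095 falls (27.9%). Of the rises in that contrast that were not common, 2193 were called higher in M1 alone, 333 in M2 alone, 438 were called in opposite directions and 38 in neither state. Of the falls that were not common, 2038 were called lower in M1 alone, 229 in M2 alone, 277 in opposite directions and 36 in neither.

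**Figure D1:**
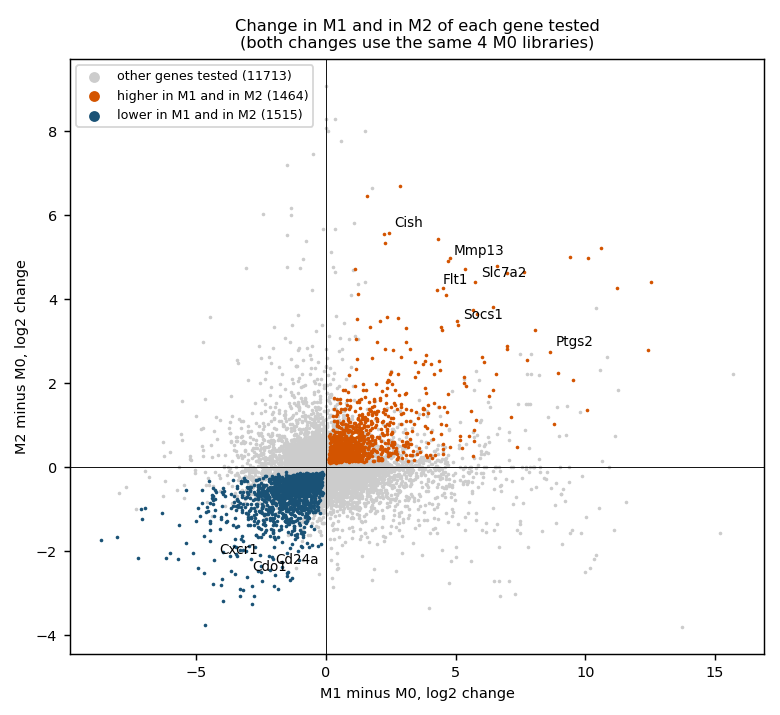
Log2 change against M0 of each of the 14692 genes tested, M1 on the x axis and M2 on the y axis, with the 1464 common rises in orange, the 1515 common falls in blue and the other genes in grey. The rises reach further from 0 than the falls on both axes, and the coloured clouds spread wider along the M1 axis than along the M2 axis.

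The changes were mostly larger in M1. Among the common rises the median log2 change was 0.70 in M1 and 0.37 in M2, and among the common falls it was −1.09 in M1 and −0.51 in M2. Over all genes tested the medians were −0.02 in M1 and 0.01 in M2. Against M2, the M1 level of the common rises was called higher for 827 genes, lower for 136 and not called for 501. Of the common falls, M1 was called lower than M2 for 949 genes, M2 lower than M1 for 89, and 477 were not called. Set against all genes tested, M1 was called higher than M2 for 32.2% and lower for 34.4%. A change of at least 2-fold in both states (log2 of 1) was seen for 197 rises (1.34%) and 232 falls (1.58%), and a change of at least 4-fold for 64 rises and 36 falls. For 1144 of the rises (7.79% of the genes tested) all 8 M1 and M2 libraries lay above all 4 M0 libraries, and for 1224 of the falls (8.33%) all 8 lay below. Without M1 replicate 2, 1817 rises and 1771 falls were called, and these held 1425 of the 1464 rises and 1488 of the 1515 falls.

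The largest common rises joined matrix remodelling, arginine uptake, prostaglandin and oxysterol synthesis and growth factor signalling. Genes were ranked by the smaller of the changes in M1 and in M2. The ranking took common rises with at least 5 CPM on average in M1 and in M2. All M1 and M2 libraries had to lie above all M0 libraries, and clone or predicted names were left out. The first 12 were Mmp13, Slc7a2, Ms4a4a, Flt1, Socs1, Olr1, Ms4a14, Ptgs2, Ch25h, Timp1, Ralgds and Hbegf. Mmp13, a collagenase of the matrix metalloproteinase family (chromosome 9, 7272514 to 7283331, plus strand), had 118, 80.8, 126 and 119 CPM in M1, 127, 130, 130.3 and 126 CPM in M2, and 4.68, 3.68, 4.2 and 4.39 CPM in M0. Its M1 libraries, the low replicate 2 among them, and its M2 libraries lay far above M0, with log2 changes of 4.71 ± 0.11 in M1 (edgeR adjusted p = 2.15e-23) and 4.92 ± 0.11 in M2 (adjusted p = 2.62e-22). Timp1, a secreted inhibitor of these proteases, had 62.3, 67.5, 70.5 and 71.1 CPM in M1, 25.2, 30, 28.4 and 27.6 CPM in M2, and 4.83, 5.54, 5.6 and 4.18 CPM in M0. It was highest in M1 and intermediate in M2. For Timp1 the log2 change was 3.76 ± 0.10 in M1 (edgeR adjusted p = 1.51e-22) and 2.47 ± 0.10 in M2 (adjusted p = 6.31e-17). Of 23 tested matrix proteases and inhibitors, 6 (26.1%) were higher in both states and 1 (Timp3, another inhibitor) was lower. The shares over all genes were 9.96% and 10.3%.

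Slc7a2, the cationic amino acid transporter CAT2 that carries arginine into macrophages, had 2126, 1749, 2167 and 1977 CPM in M1, 743, 767, 850.5 and 767 CPM in M2, and 36.5, 35.4, 36 and 39.5 CPM in M0. The M1 level was above the M2 level in each library, and both were far above M0. For Slc7a2 the log2 change was 5.76 ± 0.078 in M1 (edgeR adjusted p = 1.97e-28) and 4.41 ± 0.074 in M2 (adjusted p = 9.79e-26). Nos2 and Arg1, which share arginine as their substrate, were each raised in 1 state, while this importer was raised in both. Odc1, the enzyme that turns ornithine into the polyamine putrescine, averaged 114 ± 10.8 CPM in M1, 87.8 ± 2.37 CPM in M2 and 49.3 ± 4.59 CPM in M0 (SD, n = 4 each). For Odc1 the log2 change was 1.21 ± 0.069 in M1 (edgeR adjusted p = 7.4e-15) and 0.83 ± 0.069 in M2 (adjusted p = 1.6e-10). Arg2, the mitochondrial arginase, averaged 3.93 ± 0.556 CPM in M1, 2.21 ± 0.464 CPM in M2 and 1.26 ± 0.276 CPM in M0, and Azin2, an antizyme inhibitor, averaged 7.85 ± 2.25 CPM in M1, 11 ± 1.34 CPM in M2 and 4.05 ± 0.651 CPM in M0; both were called higher in both states. Of 18 arginine, nitric oxide and polyamine genes tested, these 3 (16.7%) were higher and 2 (11.1%) lower in both, against 9.96% and 10.3% of all genes.

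Flt1, the VEGF receptor 1, reached nearly the same level in both states. It had 29.2, 36.6, 39.4 and 31.8 CPM in M1, 30.9, 30.1, 37.8 and 32.1 CPM in M2, and 1.78, 2.5, 1.35 and 1.37 CPM in M0. No M1 or M2 library came near the M0 range. For Flt1 the log2 change was 4.30 ± 0.15 in M1 (edgeR adjusted p = 4.61e-20) and 4.23 ± 0.14 in M2 (adjusted p = 1.2e-18). Hbegf, a membrane-anchored ligand of the EGF receptor, had 31, 33.6, 39.2 and 29.4 CPM in M1, 13.5, 14.7, 12.7 and 13.9 CPM in M2, and 3.18, 2.26, 3.19 and 2.73 CPM in M0. For Hbegf the log2 change was 3.55 ± 0.12 in M1 (edgeR adjusted p = 5.12e-20) and 2.27 ± 0.13 in M2 (adjusted p = 3.76e-14). Its libraries were ordered M1, M2, M0 with no overlap. Among 25 growth factor and TGF-β family genes, 6 were higher in both (Bmp1, Csf1, Ereg, Hbegf, Skil and Smad7). In both states 9 were lower (Bmp2, Gas6, Hgf, Pdgfb, Smad3, Tgfbi, Tgfbr2, Vegfa and Vegfb). These shares of 24% and 36% stand against 9.96% and 10.3% of all genes. The VEGF receptor gene Flt1 was higher while the ligand genes Vegfa and Vegfb were lower in both states.

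Ptgs2 and Ch25h were common rises with very unequal size. Ptgs2, the inducible cyclooxygenase COX-2, had 977, 646, 941 and 902 CPM in M1, 14, 15.9, 14.8 and 13.2 CPM in M2, and 1.88, 1.42, 2.03 and 3.11 CPM in M0. The M2 libraries lay clearly above M0 but far below M1. For Ptgs2 the log2 change was 8.66 ± 0.15 in M1 (edgeR adjusted p = 2.11e-26) and 2.75 ± 0.16 in M2 (adjusted p = 6.52e-14), and the M1 minus M2 difference was 5.90 ± 0.12 (edgeR adjusted p = 1.01e-24). Ch25h, which makes 25-hydroxycholesterol, had 86.5, 108, 98.4 and 95.4 CPM in M1, 7.84, 9.45, 6.5 and 8.25 CPM in M2, and 1.5, 1.72, 1.35 and 1.12 CPM in M0. For Ch25h the log2 change was 6.10 ± 0.15 in M1 (edgeR adjusted p = 2.12e-23) and 2.50 ± 0.17 in M2 (adjusted p = 3.15e-12). The same order of M1, M2 and M0 held in all its libraries. Olr1, the oxidized LDL receptor LOX-1, averaged 26.3 ± 4.89 CPM in M1, 11.2 ± 1.26 CPM in M2 and 1.16 ± 0.233 CPM in M0. For Olr1 the log2 change was 4.50 ± 0.18 in M1 (edgeR adjusted p = 1.32e-18) and 3.26 ± 0.18 in M2 (adjusted p = 6.46e-14). Ralgds, an exchange factor for Ral GTPases, averaged 489 ± 54.3 CPM in M1, 163 ± 8.28 CPM in M2 and 29.7 ± 0.252 CPM in M0. For Ralgds the log2 change was 4.04 ± 0.081 in M1 (edgeR adjusted p = 3.56e-25) and 2.45 ± 0.077 in M2 (adjusted p = 1.99e-19).

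**Figure D2:**
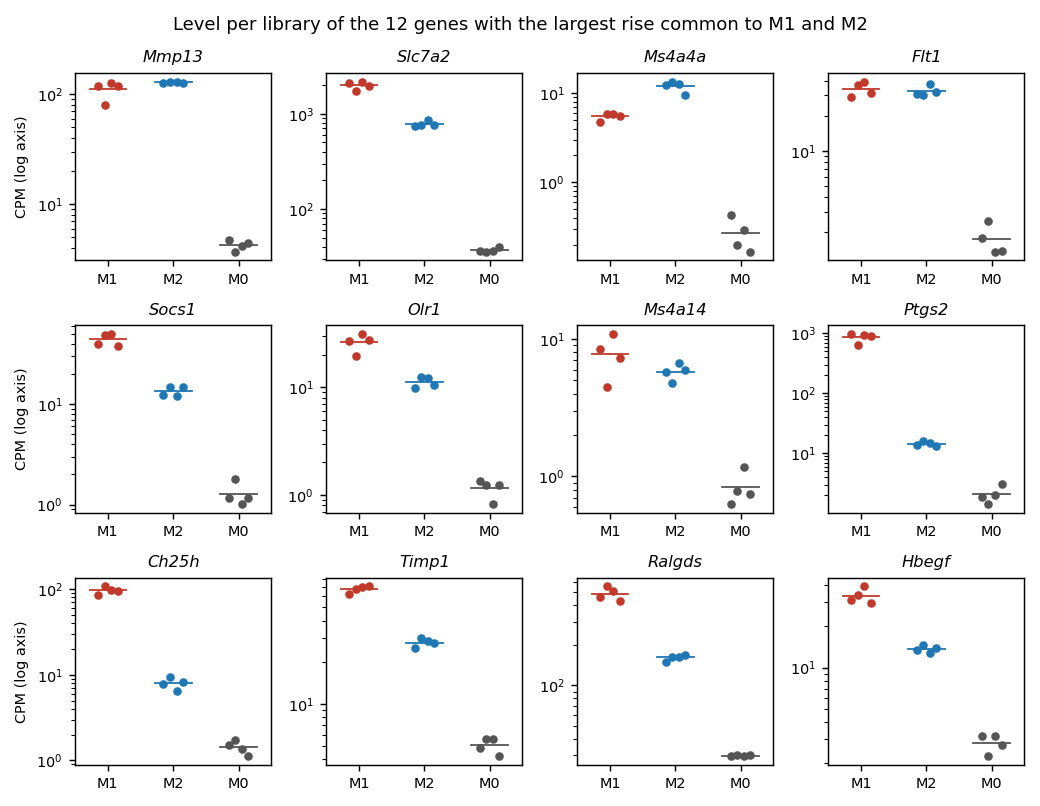
CPM per library (log axis, 1 panel per gene) of the 12 largest common rises in M1 (red), M2 (blue) and M0 (grey); points are the 4 libraries of a state and the line is their mean. No M1 or M2 library overlaps M0 in any panel, which the choice of genes required. Mmp13 and Flt1 lie at about the same level in M1 and M2, Ms4a4a is higher in M2, and Ptgs2 and Ch25h are far higher in M1.

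Sequence before the annotated start is shown for common rises in which a short motif was found, so that the letters can be read beside the values. The motifs searched on both strands, in windows of 250 bases before to 50 bases after the start, were TTCNNNGAA, its longer form with 4 bases between TTC and GAA, and TGANTCA. STAT proteins are known to bind the first, STAT6 also the longer form, and AP-1 the last. TTCNNNGAA was in the windows of 9.55%, the longer form of 8.01% and TGANTCA of 8.97% of the 27025 genes with a window. Shares among the common genes are not compared, because under 80% of them had a window (1106 of the 1464 rises and 1138 of the 1515 falls). The sequences are RefSeq's, build GRCm38.p6, plus strand, with the 250 bases before the start in lower case and the match in capitals. They were chosen after the matches were seen, and a match is a description of the letters, not of a bound site. Mmp13 has TGACTCA 35 bases before the start (chr9:7272264-7272513), Ralgds has TTCCCGGGAA 191 bases before 1 of its 2 annotated starts (chr2:28533214-28533463), and Pdcd1lg2, described below, has TTCCTCAGAA 82 bases before its start (chr19:29410669-29410918). In Cish, described below, a pair of TTCNNNGAA matches lies at the start itself, and only these 20 bases are shown (chr9:107296659-107296678).
Mmp13: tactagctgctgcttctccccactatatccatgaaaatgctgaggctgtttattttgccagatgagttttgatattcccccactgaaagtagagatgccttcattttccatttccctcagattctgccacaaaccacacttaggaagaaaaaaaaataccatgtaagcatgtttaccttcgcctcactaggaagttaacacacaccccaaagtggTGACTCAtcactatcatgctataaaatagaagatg
Ralgds: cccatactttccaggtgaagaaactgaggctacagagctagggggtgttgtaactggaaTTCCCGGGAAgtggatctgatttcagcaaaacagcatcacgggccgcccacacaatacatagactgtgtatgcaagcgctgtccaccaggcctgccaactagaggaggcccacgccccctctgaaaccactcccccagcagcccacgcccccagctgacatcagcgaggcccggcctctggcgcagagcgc
Pdcd1lg2: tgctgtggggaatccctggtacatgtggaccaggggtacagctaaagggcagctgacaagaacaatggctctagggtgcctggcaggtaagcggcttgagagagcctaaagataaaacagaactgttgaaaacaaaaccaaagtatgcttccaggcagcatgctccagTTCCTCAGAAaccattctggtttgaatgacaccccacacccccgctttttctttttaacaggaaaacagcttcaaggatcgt
Cish: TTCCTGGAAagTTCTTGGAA

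Some feedback genes of JAK-STAT signalling were higher in both states. Of 17 tested feedback genes of this pathway, 6 were higher in both states (Cish, Pim1, Pim3, Ptpn2, Socs1 and Socs3) and 2 lower (Pias3 and Socs6), against 9.96% and 10.3% of all genes. Socs1, an inhibitor of JAK kinases, had 39.3, 49.1, 50 and 37.8 CPM in M1, 12.3, 14.9, 12 and 14.9 CPM in M2, and 1.16, 1.81, 1.01 and 1.16 CPM in M0. All M1 libraries lay above all M2 libraries and these above M0. For Socs1 the log2 change was 5.10 ± 0.17 in M1 (edgeR adjusted p = 1.95e-20) and 3.39 ± 0.18 in M2 (adjusted p = 1.07e-14). Cish, a SOCS family member that is a known STAT5 target, had 2.8, 3.18, 3.7 and 3.34 CPM in M1, 28.4, 31.3, 28 and 27.1 CPM in M2, and 0.289, 0.834, 0.773 and 0.497 CPM in M0. Its M1 level was far below its M2 level but above every M0 library. For Cish the log2 change was 2.45 ± 0.25 in M1 (edgeR adjusted p = 1.52e-09) and 5.58 ± 0.19 in M2 (adjusted p = 9.69e-19), so the order of the states was the reverse of that for Socs1. Socs3, which restrains STAT3 signalling, averaged 201 ± 23.7 CPM in M1, 13.3 ± 0.577 CPM in M2 and 10.8 ± 1.27 CPM in M0. For Socs3 the log2 change was 4.21 ± 0.087 in M1 (edgeR adjusted p = 6.13e-25) and 0.30 ± 0.091 in M2 (adjusted p = 0.011). Its rise in M2 was small and its M2 and M0 libraries lay close together. Ptpn2, a phosphatase that acts on JAKs and STATs, averaged 49.3 ± 6.44 CPM in M1, 28.7 ± 1.47 CPM in M2 and 16.5 ± 0.625 CPM in M0. For Ptpn2 the log2 change was 1.58 ± 0.089 in M1 (edgeR adjusted p = 4.47e-15) and 0.80 ± 0.089 in M2 (adjusted p = 3.96e-08).

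Of 25 receptors, kinases and STATs of the pathway, 8 were higher in both states and 0 lower, against 9.96% and 10.3% of all genes. Where a count of 0 is given for a list in 1 direction, here and below, an unadjusted p under 0.05 in both states and the DESeq2 Wald test gave 0 as well, except for 1 lysosomal hydrolase at an unadjusted p. The limma voom fit gave 1 for the falls of this list and for the rises of the Toll-like receptors, 2 for the rises of the lysosomal hydrolases, and 0 for the others. Jak2, the kinase of the IFN-γ and GM-CSF receptors, had 595, 400.1, 609 and 599 CPM in M1, 107, 107, 111 and 104 CPM in M2, and 51.3, 50.3, 52.9 and 56.5 CPM in M0. M1 replicate 2 was lower than the other M1 libraries but still well above M2. For Jak2 the log2 change was 3.38 ± 0.089 in M1 (edgeR adjusted p = 1.21e-22) and 1.02 ± 0.084 in M2 (adjusted p = 1.22e-10). Csf2rb, the common β chain of the GM-CSF, IL-3 and IL-5 receptors, averaged 1046 ± 115 CPM in M1, 1044 ± 39.4 CPM in M2 and 696 ± 50.1 CPM in M0. For Csf2rb the log2 change was 0.59 ± 0.062 in M1 (edgeR adjusted p = 2.9e-09) and 0.58 ± 0.062 in M2 (adjusted p = 1.67e-08). The 95% interval of its M1 minus M2 difference was −0.13 to 0.13, so its rise was of like size in both states. Its neighbour Csf2rb2 is a near copy, and reads of the pair could be split between them. Stat6 averaged 216 ± 13.1 CPM in M1, 193 ± 5.13 CPM in M2 and 219.7 ± 5.15 CPM in M0 and Il4ra 78.1 ± 9.17 CPM in M1, 63.5 ± 2.87 CPM in M2 and 55.6 ± 3.26 CPM in M0, and neither was a common gene; Il4ra was called without M1 replicate 2 or M1 replicate 4. Without M0 replicate 1 or M0 replicate 2, 5 rather than 8 genes of this list were called higher in both.

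Many genes that build ribosomes, charge tRNAs and make amino acids were higher in both states. Of 30 ribosome biogenesis genes 17 were higher in both and 0 lower, of 20 aminoacyl-tRNA synthetases 11 and 0, and of 24 targets of ATF4, the transcription factor of the integrated stress response, 13 and 0. The background was 9.96% higher and 10.3% lower. The changes were moderate, and the list medians were a little higher in M2 than in M1: the median log2 change was 0.36 in M1 and 0.47 in M2 for ribosome biogenesis, 0.24 and 0.31 for the synthetases, and 0.54 and 0.60 for the ATF4 targets, beside −0.02 and 0.01 over all genes. Rrs1, a ribosome assembly factor, had 71.7, 73.4, 64.7 and 67.9 CPM in M1, 65.5, 65.6, 67.6 and 66.2 CPM in M2, and 38.7, 34.4, 37.3 and 35.7 CPM in M0. For Rrs1 the log2 change was 0.93 ± 0.054 in M1 (edgeR adjusted p = 1.05e-14) and 0.86 ± 0.054 in M2 (adjusted p = 4.67e-13). Its M1 and M2 libraries overlapped each other and lay above M0. Psat1, the aminotransferase of serine synthesis, had 174, 172, 164 and 168 CPM in M1, 137, 137, 125 and 132 CPM in M2, and 56.6, 60.8, 64.2 and 58.1 CPM in M0. For Psat1 the log2 change was 1.5 ± 0.058 in M1 (edgeR adjusted p = 8.99e-19) and 1.15 ± 0.058 in M2 (adjusted p = 5.83e-15). M1 was somewhat above M2 in all libraries. Phgdh, the first enzyme of that pathway, averaged 148 ± 13.2 CPM in M1, 137 ± 4.47 CPM in M2 and 75.7 ± 4.33 CPM in M0. For Phgdh the log2 change was 0.96 ± 0.069 in M1 (edgeR adjusted p = 1.02e-12) and 0.85 ± 0.069 in M2 (adjusted p = 8.44e-11).

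Among the synthetases, Rars, which charges arginine tRNA, averaged 232 ± 5.69 CPM in M1, 157 ± 6.84 CPM in M2 and 87.6 ± 3.71 CPM in M0. For Rars the log2 change was 1.40 ± 0.05 in M1 (edgeR adjusted p = 1.65e-19) and 0.84 ± 0.05 in M2 (adjusted p = 1.74e-13). Wars, which charges tryptophan tRNA and is known to respond to interferon, averaged 477 ± 46.5 CPM in M1, 135 ± 4.9 CPM in M2 and 106 ± 7.86 CPM in M0. For Wars the log2 change was 2.18 ± 0.065 in M1 (edgeR adjusted p = 2.72e-21) and 0.36 ± 0.064 in M2 (adjusted p = 5.3e-05). Nupr1, a small stress-induced nuclear protein, averaged 57.5 ± 5.31 CPM in M1, 17.3 ± 1.3 CPM in M2 and 10.1 ± 1.76 CPM in M0. For Nupr1 the log2 change was 2.52 ± 0.11 in M1 (edgeR adjusted p = 8.13e-18) and 0.79 ± 0.11 in M2 (adjusted p = 1.86e-06). Tsr1 and Rrp9, further ribosome assembly factors, had log2 changes of 0.65 ± 0.081 in M1 and 0.89 ± 0.078 in M2 and of 1.12 ± 0.13 in M1 and 0.55 ± 0.13 in M2. Myc, a transcription factor that drives ribosome biogenesis in many cells, was not a common gene: it averaged 13.7 ± 1.92 CPM in M1, 32.4 ± 2.98 CPM in M2 and 15.5 ± 2.02 CPM in M0. For Myc the log2 change was −0.18 ± 0.11 in M1 (edgeR adjusted p = 0.163) and 1.07 ± 0.10 in M2 (adjusted p = 3e-09).

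Amino acid transporters split, beside 9.96% higher and 10.3% lower in both states over all genes. Of 22 tested, 6 were higher in both states (Slc1a4, Slc3a2, Slc7a1, Slc7a2, Slc7a5 and Slc7a8) and 5 lower in both (Slc36a1, Slc38a1, Slc38a2, Slc38a4 and Slc43a2). Slc7a5, the leucine transporter LAT1 that pairs with Slc3a2, had 47.2, 64.3, 49.3 and 52.1 CPM in M1, 38.4, 38.5, 41.2 and 38.6 CPM in M2, and 18.5, 19.6, 19.6 and 16.4 CPM in M0. For Slc7a5 the log2 change was 1.52 ± 0.084 in M1 (edgeR adjusted p = 3.11e-15) and 1.08 ± 0.084 in M2 (adjusted p = 4.11e-11). Slc43a2, the leucine transporter LAT4, had 48.8, 58.6, 54.1 and 41.9 CPM in M1, 83, 82.5, 84.6 and 82.5 CPM in M2, and 158, 173, 166 and 164 CPM in M0. For Slc43a2 the log2 change was −1.70 ± 0.084 in M1 (edgeR adjusted p = 2.44e-16) and −0.99 ± 0.081 in M2 (adjusted p = 1.17e-10). The order of the libraries was M1 lowest, then M2, then M0 for Slc43a2, and the reverse for Slc7a5. The count of falls dropped to 3 without M0 replicate 4 or without M2 replicate 4.

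Of 32 proteasome genes tested in the 20S core and the 19S regulatory particle, 16 were higher in both states, with small changes in M2. Over all genes, 9.96% were higher and 10.3% lower in both. Of 14 genes of the 20S core 9 were higher in both and 0 lower, with a median log2 change of 1.15 in M1 and 0.20 in M2, and of 18 genes of the 19S regulatory particle 7 were higher and 0 lower, with medians of 0.76 and 0.12. Psma3, a ring subunit of the core, had 159, 119, 149.6 and 157 CPM in M1, 79.5, 77.4, 73.5 and 79.3 CPM in M2, and 62.9, 63.2, 60.6 and 59.9 CPM in M0. For Psma3 the log2 change was 1.25 ± 0.063 in M1 (edgeR adjusted p = 3.56e-16) and 0.33 ± 0.062 in M2 (adjusted p = 0.000128). Psmc5, an ATPase of the regulatory particle, averaged 131 ± 15.8 CPM in M1, 92.2 ± 3.91 CPM in M2 and 73 ± 4.92 CPM in M0. For Psmc5 the log2 change was 0.84 ± 0.063 in M1 (edgeR adjusted p = 2.61e-12) and 0.34 ± 0.063 in M2 (adjusted p = 0.000101). The M2 libraries of both genes lay close above M0. The count for the 19S particle dropped to 4 without M0 replicate 2, without M0 replicate 4 or without M2 replicate 2.

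Among the catalytic subunits of the immunoproteasome, the complex that ONX-0914 inhibits, Psmb10 alone was a common gene. Psmb10, or MECL-1, had 497, 665, 451 and 525 CPM in M1, 209.5, 225, 202 and 214 CPM in M2, and 68.3, 63.6, 63.1 and 56.5 CPM in M0. For Psmb10 the log2 change was 3.09 ± 0.088 in M1 (edgeR adjusted p = 8.55e-22) and 1.76 ± 0.085 in M2 (adjusted p = 2.29e-15). Every M2 library lay well above every M0 library, and every M1 library above those of M2. Psmb8, or LMP7, had 361, 438, 342 and 346 CPM in M1, 50.8, 50.2, 46 and 50.9 CPM in M2, and 56.5, 51.1, 52.4 and 48 CPM in M0. For Psmb8 the log2 change was 2.84 ± 0.075 in M1 (edgeR adjusted p = 1.35e-22) and −0.07 ± 0.073 in M2 (adjusted p = 0.484). Psmb9, or LMP2, averaged 228 ± 38.1 CPM in M1, 19.6 ± 1.49 CPM in M2 and 18 ± 2.37 CPM in M0. For Psmb9 the log2 change was 3.67 ± 0.10 in M1 (edgeR adjusted p = 2.36e-22) and 0.13 ± 0.10 in M2 (adjusted p = 0.334). The M2 libraries of Psmb8 and Psmb9 lay within or near the M0 range while those of M1 were far above it.

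Of the stress regulators named in the study's title, Nfe2l1 (NRF1, which drives proteasome genes) averaged 599.6 ± 57.6 CPM in M1, 332 ± 4.76 CPM in M2 and 298 ± 8.86 CPM in M0. For Nfe2l1 the log2 change was 1.01 ± 0.055 in M1 (edgeR adjusted p = 2.69e-15) and 0.15 ± 0.055 in M2 (adjusted p = 0.0283). Its common call was lost in 9 of 19 alternatives, among them leaving out M0 replicate 1 or 4 or M2 replicate 1, 2 or 3. Sqstm1, the autophagy receptor p62, averaged 1574 ± 156 CPM in M1, 765 ± 20.1 CPM in M2 and 672 ± 37 CPM in M0. For Sqstm1 the log2 change was 1.23 ± 0.056 in M1 (edgeR adjusted p = 4.38e-17) and 0.19 ± 0.056 in M2 (adjusted p = 0.00945). Nfe2l2 (NRF2) averaged 454 ± 19.8 CPM in M1, 294 ± 14.3 CPM in M2 and 371 ± 4.65 CPM in M0 and Keap1, its inhibitor, 175 ± 25.9 CPM in M1, 42.6 ± 0.944 CPM in M2 and 52.2 ± 3.76 CPM in M0; both were higher in M1 and lower in M2 than in M0, so neither was common. Of 25 NRF2 antioxidant genes tested, 1 (Nqo1) was higher in both and 3 (Cat, Gstm1 and Taldo1) were lower in both. That is 4% and 12%, against 9.96% and 10.3% of all genes. Heat shock proteins and their partners rose in both states for 7 of 20 tested, with 1 (Dnajb4) lower, and a median log2 change of 0.59 in M1 and 0.13 in M2.

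Energy metabolism genes also had common members, beside 9.96% higher and 10.3% lower in both states over all genes. Of 25 glycolysis and HIF-1 genes 6 were higher in both (Hk2, Ldha, Pfkp, Pgam1, Pgk1 and Slc2a1) and 2 lower (Slc2a3 and Vegfa). Hk2, the inducible hexokinase, had 239, 294, 271 and 216 CPM in M1, 148, 152, 157 and 150.1 CPM in M2, and 71.3, 64.5, 65 and 68.6 CPM in M0. For Hk2 the log2 change was 1.92 ± 0.067 in M1 (edgeR adjusted p = 8.34e-20) and 1.17 ± 0.066 in M2 (adjusted p = 6.04e-14). Ldha, the lactate dehydrogenase subunit, had 1276, 1664, 1407 and 1283 CPM in M1, 1120, 1225, 1129 and 1144 CPM in M2, and 583, 543, 562 and 519.6 CPM in M0. For Ldha the log2 change was 1.35 ± 0.072 in M1 (edgeR adjusted p = 1.61e-15) and 1.06 ± 0.072 in M2 (adjusted p = 2.46e-12). The M2 libraries of Ldha lay far above M0 and below M1. Of 32 nuclear-encoded subunits of the respiratory chain 9 were higher in both and 0 lower, with a median of 0.13 in M1 and 0.15 in M2. The largest of these was Cycs, cytochrome c, which averaged 173 ± 6.69 CPM in M1, 74.1 ± 5.62 CPM in M2 and 46.9 ± 3.57 CPM in M0. For Cycs the log2 change was 1.89 ± 0.057 in M1 (edgeR adjusted p = 2.97e-21) and 0.66 ± 0.056 in M2 (adjusted p = 2.81e-10). Idh1, the cytosolic isocitrate dehydrogenase, fell in both: it averaged 27.2 ± 3.69 CPM in M1, 201 ± 7.89 CPM in M2 and 239.6 ± 9.21 CPM in M0. For Idh1 the log2 change was −3.14 ± 0.072 in M1 (edgeR adjusted p = 6.12e-24) and −0.26 ± 0.063 in M2 (adjusted p = 0.00213).

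A few genes best known as markers of 1 state were also higher in the other, in shares near or below those of all genes. Of 24 LPS and IFN-γ markers 5 were higher in both states, among them Cd40, Irf1, Ptgs2 and Slamf1, and 0 lower, and of 25 IL-4 markers 4 were higher and 0 lower (Cish, Flt1, Pdcd1lg2 and Tgm2). Of the LPS and IFN-γ markers 5 were called higher and 5 lower in M2, where 18.7% of all genes were higher and 17.5% lower. Of the IL-4 markers 6 were called higher and 10 lower in M1, where 34.6% of all genes were higher and 34.2% lower. Cd274 and Pdcd1lg2, the ligands PD-L1 and PD-L2 of the inhibitory receptor PD-1, were both common rises with opposite order. Cd274 had 2696, 2371, 2790 and 2546 CPM in M1, 353, 322, 347 and 319.9 CPM in M2, and 171, 176, 179.7 and 171 CPM in M0. For Cd274 the log2 change was 3.90 ± 0.068 in M1 (edgeR adjusted p = 2.15e-26) and 0.94 ± 0.062 in M2 (adjusted p = 1.27e-12). Pdcd1lg2 had 0.955, 0.969, 1.79 and 0.629 CPM in M1, 32.7, 36.4, 30.8 and 29.1 CPM in M2, and 0.482, 0.392, 0.338 and 0.248 CPM in M0. For Pdcd1lg2 the log2 change was 1.59 ± 0.28 in M1 (edgeR adjusted p = 1.61e-05) and 6.46 ± 0.17 in M2 (adjusted p = 5.38e-21). M1 was the higher state for Cd274 and M2 for Pdcd1lg2, and the lower state of each still lay above all M0 libraries. Cd40, the receptor of CD40 ligand, averaged 1562 ± 192 CPM in M1, 3.71 ± 0.52 CPM in M2 and 1.44 ± 0.374 CPM in M0. For Cd40 the log2 change was 10.07 ± 0.14 in M1 (edgeR adjusted p = 1.97e-28) and 1.35 ± 0.17 in M2 (adjusted p = 3.14e-07).

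Of 22 chemokine genes 3 (13.6%) were higher in both (Ccl2, Ccl7 and Ccl9) and 0 lower, against 9.96% and 10.3% of all genes. Ccl2, which attracts monocytes, had 1105, 1501, 1232 and 1137 CPM in M1, 61.9, 73.4, 63.9 and 60.3 CPM in M2, and 23.4, 24, 28.9 and 25.5 CPM in M0. For Ccl2 the log2 change was 5.61 ± 0.10 in M1 (edgeR adjusted p = 5.32e-26) and 1.35 ± 0.091 in M2 (adjusted p = 2.42e-12). Ccl7 averaged 395 ± 37.1 CPM in M1, 35.9 ± 3.97 CPM in M2 and 9.28 ± 1.4 CPM in M0. For Ccl7 the log2 change was 5.40 ± 0.12 in M1 (edgeR adjusted p = 5.69e-24) and 1.95 ± 0.12 in M2 (adjusted p = 2.67e-13). Of 21 NF-κB subunits and feedback genes 5 were higher in both and 0 lower, among them Nfkb1 with log2 changes of 2.55 ± 0.057 in M1 and 0.55 ± 0.055 in M2 and Rel with 1.40 ± 0.10 in M1 and 0.80 ± 0.10 in M2. Of 22 AP-1, EGR and early response factors 5 were higher in both and 0 lower; Ier3 averaged 106 ± 9.94 CPM in M1, 75.7 ± 1.93 CPM in M2 and 20.4 ± 1.16 CPM in M0 and Maff 33.3 ± 1.97 CPM in M1, 15.5 ± 0.673 CPM in M2 and 7.29 ± 0.501 CPM in M0. Of 29 type I interferon-stimulated genes 3 (10.3%) were higher in both, near the 9.96% of all genes. Among them, Zbp1, a sensor of nucleic acids, averaged 737 ± 38 CPM in M1, 12.2 ± 0.806 CPM in M2 and 5.3 ± 0.945 CPM in M0. For Zbp1 the log2 change was 7.12 ± 0.10 in M1 (edgeR adjusted p = 3.77e-28) and 1.20 ± 0.10 in M2 (adjusted p = 2.37e-10). Without M2 replicate 3 there were 5 common chemokine rises, and without M1 replicate 2 there were 5 common rises among the interferon-stimulated genes.

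Several genes of the Ms4a cluster rose in both states, while others did not. This family of 4-pass membrane proteins lies together on chromosome 19, and it is described here after its values were seen. Of 11 Ms4a genes tested, 6 were higher and 1 lower in both, against 9.96% and 10.3% of all genes. Ms4a4b, Ms4a4c and Ms4a6b were called higher in M1 alone. Ms4a4d moved in opposite directions, with log2 changes of 4.16 ± 0.18 in M1 and −1.20 ± 0.31 in M2. Ms4a4a (chromosome 19, 11375523 to 11392790, plus strand) had 4.71, 5.88, 5.89 and 5.6 CPM in M1, 12.2, 13.4, 12.6 and 9.5 CPM in M2, and 0.434, 0.196, 0.29 and 0.166 CPM in M0. For Ms4a4a the log2 change was 4.33 ± 0.27 in M1 (edgeR adjusted p = 4.31e-14) and 5.44 ± 0.25 in M2 (adjusted p = 5.18e-16). Ms4a14 had 8.53, 4.5, 10.9 and 7.3 CPM in M1, 5.78, 4.8, 6.67 and 5.98 CPM in M2, and 0.627, 0.785, 1.16 and 0.745 CPM in M0. All its M1 and M2 libraries lay above M0. Ms4a8a averaged 36.1 ± 4.12 CPM in M1, 44.3 ± 2.94 CPM in M2 and 28.4 ± 2.24 CPM in M0. Ms4a7 had 78.6, 80.1, 68.8 and 81.3 CPM in M1, 139, 133, 128 and 137 CPM in M2, and 22, 23.3, 23.3 and 20 CPM in M0. For Ms4a7 the log2 change was 1.80 ± 0.074 in M1 (edgeR adjusted p = 4.08e-18) and 2.60 ± 0.074 in M2 (adjusted p = 2.48e-20), and the M2 libraries lay above those of M1. Ms4a6d averaged 879 ± 67.6 CPM in M1, 268 ± 17.7 CPM in M2 and 103 ± 4.11 CPM in M0 and Ms4a6c 332 ± 25.3 CPM in M1, 12.2 ± 1.45 CPM in M2 and 7.29 ± 1.02 CPM in M0, and both were higher in M1 than in M2. The member that fell, Ms4a1, is the B cell marker CD20; it averaged 1.08 ± 0.526 CPM in M1, 0.887 ± 0.32 CPM in M2 and 1.79 ± 0.459 CPM in M0, and its call was lost in 12 of 19 alternatives, which include leaving out M0 replicate 2, 3 or 4, M1 replicate 1, 2 or 3, or M2 replicate 1 or 4. Reads that fit several members of this family could be split between them, and the sources used here do not say how such reads were counted.

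The largest common falls included a cysteine catabolic enzyme, a chemokine receptor and other membrane proteins. The ranking was the same, for falls with at least 5 CPM on average in M0. All M1 and M2 libraries had to lie below all M0 libraries. The first 12 were Cdo1, Cxcr1, Cd24a, Dmpk, Cemip, Cavin2, Ifitm6, Fmnl1, Lrp2, March9, Rasl11a and Trim16. Cdo1, cysteine dioxygenase, had 0.764, 1.04, 0.578 and 0.504 CPM in M1, 1.42, 0.85, 0.737 and 0.82 CPM in M2, and 6.75, 5.74, 5.26 and 5.71 CPM in M0. For Cdo1 the log2 change was −3.03 ± 0.24 in M1 (edgeR adjusted p = 5.42e-12) and −2.61 ± 0.21 in M2 (adjusted p = 9.46e-11). Every M1 and M2 library lay well below M0. Cxcr1, a chemokine receptor, had 0.318, 0.484, 0.462 and 0.755 CPM in M1, 2.38, 1.9, 2.25 and 2.31 CPM in M2, and 10.2, 9.51, 10.4 and 10.6 CPM in M0. For Cxcr1 the log2 change was −4.32 ± 0.19 in M1 (edgeR adjusted p = 2.17e-17) and −2.20 ± 0.14 in M2 (adjusted p = 6.83e-13), and the M1 libraries lay below those of M2. Cd24a, a glycosylated surface anchor protein (chromosome 10, 43578284 to 43584265, plus strand), had 21.5, 19.3, 23.5 and 20.3 CPM in M1, 17.2, 17.9, 15.8 and 19.1 CPM in M2, and 98, 98.5, 98.8 and 84.1 CPM in M0. For Cd24a the log2 change was −2.16 ± 0.081 in M1 (edgeR adjusted p = 4.53e-19) and −2.44 ± 0.081 in M2 (adjusted p = 6.73e-19). Its M2 libraries lay just below its M1 libraries. Cd24a is also expressed by B cells. The 13 B cell markers summed to 81.6 to 94.3 CPM in M1, 117 to 125 CPM in M2 and 110 to 119 CPM in M0. Cd22 made up most of this sum, at a mean of 62.2 CPM in M1, 101 CPM in M2 and 85.6 CPM in M0. Of the 11 B cell markers tested, 2 fell in both states, and the median log2 change was −0.46 in M1 and −0.54 in M2. Their part in the fall of Cd24a was not tested.

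Cemip, which takes part in the breakdown of hyaluronan, averaged 1.37 ± 0.247 CPM in M1, 5.27 ± 0.26 CPM in M2 and 21.2 ± 4.7 CPM in M0. For Cemip the log2 change was −3.95 ± 0.25 in M1 (edgeR adjusted p = 7.11e-14) and −2.01 ± 0.19 in M2 (adjusted p = 2.67e-09). Fmnl1, a formin that shapes the actin cytoskeleton, averaged 6.49 ± 0.669 CPM in M1, 11.4 ± 0.582 CPM in M2 and 36.1 ± 4.84 CPM in M0. For Fmnl1 the log2 change was −2.48 ± 0.10 in M1 (edgeR adjusted p = 1.34e-18) and −1.67 ± 0.089 in M2 (adjusted p = 1.74e-14). Lrp2, the endocytic receptor megalin, averaged 6.35 ± 1.86 CPM in M1, 8.02 ± 1.34 CPM in M2 and 25.2 ± 3.9 CPM in M0. For Lrp2 the log2 change was −2.00 ± 0.19 in M1 (edgeR adjusted p = 2.8e-10) and −1.65 ± 0.18 in M2 (adjusted p = 1.82e-08). Ifitm6, of a family best known for interferon-induced members, was lower in both states, at 2.48 ± 0.416 CPM in M1, 1.69 ± 0.487 CPM in M2 and 8.07 ± 0.784 CPM in M0. For Ifitm6 the log2 change was −1.69 ± 0.15 in M1 (edgeR adjusted p = 1.46e-10) and −2.24 ± 0.16 in M2 (adjusted p = 4.03e-12). The choice of the 12 required that no M1 or M2 library overlap M0, so the lack of overlap is not a further result.

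**Figure D3:**
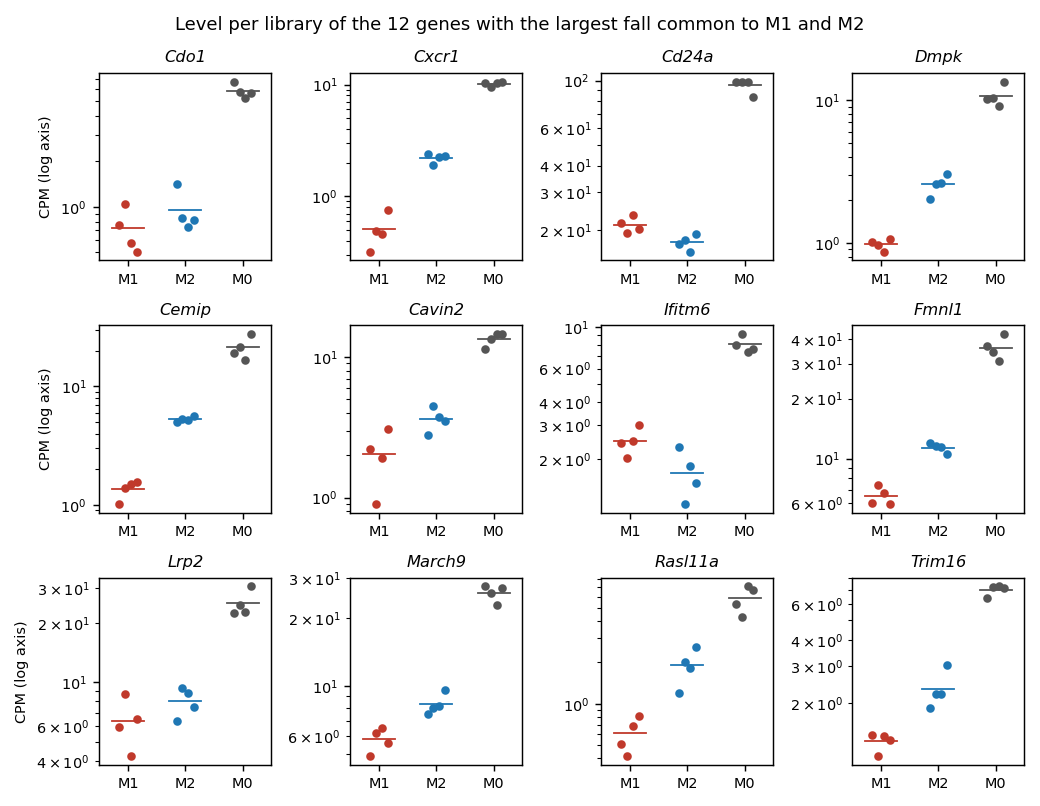
CPM per library (log axis, 1 panel per gene) of the 12 largest common falls in M1 (red), M2 (blue) and M0 (grey); points are the 4 libraries of a state and the line is their mean. All M1 and M2 libraries lie below all M0 libraries in each panel, which the choice of genes required. For Cxcr1, Dmpk, Cemip and Fmnl1 the M1 libraries also lie below those of M2.

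Some of the receptors by which macrophages sense attractants were lower in both states. Of 18 chemokine and other chemoattractant receptors 6 were lower in both (C5ar1, C5ar2, Cx3cr1, Cxcr3, Cxcr4 and S1pr1), which is 33.3% against 10.3% of all genes, and 1 was higher (Cmklr1). Taken state by state, 6 were called higher and 10 lower in M1, and 5 higher and 9 lower in M2. The median log2 change was −0.82 in M1 and −0.68 in M2, beside −0.02 and 0.01 over all genes. C5ar1, the receptor of the complement fragment C5a, had 23.8, 33.2, 24.3 and 23.2 CPM in M1, 17, 19.1, 15.8 and 14.1 CPM in M2, and 43, 51.9, 50.9 and 49.2 CPM in M0. For C5ar1 the log2 change was −0.90 ± 0.12 in M1 (edgeR adjusted p = 1.1e-07) and −1.56 ± 0.12 in M2 (adjusted p = 2.81e-11). The M2 libraries were lowest, then M1, then M0. S1pr1, a receptor of sphingosine 1-phosphate, averaged 2.66 ± 0.761 CPM in M1, 5.18 ± 1.02 CPM in M2 and 13.5 ± 1.41 CPM in M0. For S1pr1 the log2 change was −2.34 ± 0.17 in M1 (edgeR adjusted p = 1.07e-12) and −1.38 ± 0.15 in M2 (adjusted p = 1.8e-08). Cxcr3 averaged 0.177 ± 0.0836 CPM in M1, 0.21 ± 0.0596 CPM in M2 and 1.64 ± 0.413 CPM in M0, and Cx3cr1 averaged 0.0777 ± 0.0612 CPM in M1, 0.0575 ± 0.0675 CPM in M2 and 0.613 ± 0.152 CPM in M0.

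Genes of engulfment and surface recognition moved both ways. Of 24 scavenger and efferocytosis receptors and ligands 4 were lower in both states (Cd163, Gas6, Itgb5 and Scarb1; 16.7% against 10.3% of all genes) and 2 higher (Itgav and Olr1). In M1 13 of them were called higher and 11 lower, and in M2 4 were called higher and 9 lower. Without M0 replicate 3 or M1 replicate 1, 1 rather than 2 was higher in both. The genes described next were all common falls. Gas6, the bridging ligand between dying cells and TAM receptors, had 14.1, 20.9, 14.9 and 17.8 CPM in M1, 26, 30, 26.1 and 26.6 CPM in M2, and 57, 60.2, 62.1 and 63.3 CPM in M0. For Gas6 the log2 change was −1.85 ± 0.089 in M1 (edgeR adjusted p = 1.5e-16) and −1.16 ± 0.084 in M2 (adjusted p = 1.02e-11). Trem2, a lipid-sensing receptor, averaged 514 ± 70.8 CPM in M1, 764 ± 31.1 CPM in M2 and 948 ± 55.6 CPM in M0. For Trem2 the log2 change was −0.88 ± 0.074 in M1 (edgeR adjusted p = 2.74e-11) and −0.31 ± 0.073 in M2 (adjusted p = 0.00135). Tyrobp, its signalling adaptor DAP12, averaged 472 ± 84.7 CPM in M1, 558 ± 18.8 CPM in M2 and 743 ± 66.4 CPM in M0. For Tyrobp the log2 change was −0.65 ± 0.084 in M1 (edgeR adjusted p = 1.04e-07) and −0.41 ± 0.084 in M2 (adjusted p = 0.000266). M1 replicate 2 was the highest M1 library for Gas6, Trem2 and Tyrobp. Cd93, a C-type lectin-like surface protein, averaged 74.9 ± 5.14 CPM in M1, 335 ± 12.4 CPM in M2 and 645 ± 32.9 CPM in M0. For Cd93 the log2 change was −3.10 ± 0.062 in M1 (edgeR adjusted p = 3.46e-25) and −0.95 ± 0.057 in M2 (adjusted p = 2.41e-13). Tlr13, an endosomal receptor of bacterial ribosomal RNA, was the only one of 23 Toll-like receptors and adaptors called in the same direction in both states; it averaged 121 ± 11.6 CPM in M1, 219.9 ± 10.5 CPM in M2 and 373 ± 11.3 CPM in M0. For Tlr13 the log2 change was −1.63 ± 0.081 in M1 (edgeR adjusted p = 2.57e-16) and −0.76 ± 0.078 in M2 (adjusted p = 9.25e-09).

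Lipid handling, lysosomal hydrolase and autophagy genes held more common falls than rises, while genes of the V-ATPase, the proton pump of the lysosome, and of lysosome regulation went both ways. Of 24 LXR, PPAR and lipid handling genes 7 were lower in both and 1 higher (Angptl4), of 29 lysosomal hydrolases 7 were lower and 0 higher, and of 21 autophagy genes 6 were lower and 3 higher. The shares lower in both were 29.2%, 24.1% and 28.6% in this order, against 10.3% of all genes. Of 22 V-ATPase and lysosome regulator genes 4 were higher in both (Atp6v1d, Atp6v1e1, Atp6v1h and Mitf) and 3 lower (Flcn, Fnip2 and Rragd), and 2 rather than 4 were higher without M0 replicate 2 or 4 or M2 replicate 1, 2 or 4. Leaving out 1 library lowered the count of falls to 4 for the lipid genes (M0 replicate 1) and to 4 for the hydrolases (M0 replicate 1, M2 replicate 1 or M2 replicate 3). Scd1, the stearoyl-CoA desaturase, had 17.8, 16.1, 21.6 and 17.4 CPM in M1, 22.3, 25.1, 20.8 and 19.2 CPM in M2, and 32.1, 38.1, 37.9 and 41.3 CPM in M0. For Scd1 the log2 change was −1.03 ± 0.10 in M1 (edgeR adjusted p = 2.32e-10) and −0.77 ± 0.093 in M2 (adjusted p = 1.41e-07). Fabp5, a fatty acid binding protein, averaged 1252 ± 133 CPM in M1, 1709 ± 104 CPM in M2 and 2393 ± 171 CPM in M0. For Fabp5 the log2 change was −0.94 ± 0.067 in M1 (edgeR adjusted p = 1.04e-12) and −0.49 ± 0.067 in M2 (adjusted p = 1.34e-06). The falls of Ulk1, the kinase that starts autophagy, were −0.87 ± 0.078 in M1 and −0.45 ± 0.075 in M2, and those of Nbr1, a cargo receptor, were −0.63 ± 0.05 in M1 and −0.43 ± 0.049 in M2. Hpgds, which makes prostaglandin D2, fell while Ptgs2 rose: it averaged 40.5 ± 6.79 CPM in M1, 70.9 ± 4.47 CPM in M2 and 157 ± 3.99 CPM in M0. For Hpgds the log2 change was −1.95 ± 0.081 in M1 (edgeR adjusted p = 4.49e-18) and −1.15 ± 0.077 in M2 (adjusted p = 2.36e-12).

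Iron handling, clock output and cell death genes held common falls, and the first and the last also held rises. Of 19 iron handling genes 3 were lower in both (Ncoa4, Slc39a8 and Slc40a1) and 1 higher (Slc39a14, not called without M2 replicate 2), against 10.3% lower and 9.96% higher over all genes. Slc40a1, the iron exporter ferroportin, averaged 0.389 ± 0.309 CPM in M1, 0.514 ± 0.213 CPM in M2 and 3.9 ± 0.591 CPM in M0. For Slc40a1 the log2 change was −3.28 ± 0.29 in M1 (edgeR adjusted p = 1.13e-10) and −2.90 ± 0.26 in M2 (adjusted p = 8.84e-10). Ncoa4, the receptor that delivers ferritin to the lysosome, averaged 147 ± 7.35 CPM in M1, 248 ± 6.2 CPM in M2 and 289.6 ± 9.51 CPM in M0. For Ncoa4 the log2 change was −0.98 ± 0.054 in M1 (edgeR adjusted p = 3.08e-15) and −0.23 ± 0.053 in M2 (adjusted p = 0.00128). Of 15 circadian clock genes 5 were lower in both (Dbp, Per1, Per3, Rora and Tef) and 0 higher. Dbp, a clock-driven transcription factor, had 0.446, 0.831, 0.462 and 0.944 CPM in M1, 1.24, 1.15, 1.39 and 1.35 CPM in M2, and 3.86, 3.83, 5.02 and 3.64 CPM in M0. For Dbp the log2 change was −2.61 ± 0.24 in M1 (edgeR adjusted p = 1.67e-10) and −1.67 ± 0.20 in M2 (adjusted p = 1.79e-07). Tef, of the same family, averaged 20.3 ± 1.45 CPM in M1, 37.5 ± 1.66 CPM in M2 and 47.6 ± 1.86 CPM in M0. For Tef the log2 change was −1.23 ± 0.058 in M1 (edgeR adjusted p = 9.12e-17) and −0.34 ± 0.055 in M2 (adjusted p = 1.15e-05). Of 19 BCL2 family and apoptosis regulators 3 (15.8%) were lower in both, Bmf and Bbc3 among them, and 3 (15.8%) were higher (Bcl2a1a, Bcl2a1b and Cflar). In M1 13 of these genes were called higher and 5 lower, and in M2 5 higher and 7 lower. Bcl2a1a and Bcl2a1b are near copies, and their reads could be split between them. Bmf encodes a BH3-only death protein and averaged 1.44 ± 0.496 CPM in M1, 4.75 ± 0.658 CPM in M2 and 10.8 ± 0.982 CPM in M0. Bbc3, which encodes the related protein PUMA, had 10.8, 12.6, 11.9 and 11 CPM in M1, 12.2, 11.2, 14.8 and 11.5 CPM in M2, and 24.5, 24.2, 25.9 and 24.6 CPM in M0. Both fell, Bmf by log2 changes of −2.89 ± 0.21 in M1 and −1.19 ± 0.17 in M2 and Bbc3 by −1.10 ± 0.091 in M1 and −1.0 ± 0.088 in M2. Catalase (Cat) averaged 77.3 ± 3.09 CPM in M1, 117 ± 4.66 CPM in M2 and 169 ± 4.13 CPM in M0. For Cat the log2 change was −1.13 ± 0.05 in M1 (edgeR adjusted p = 1.93e-17) and −0.53 ± 0.049 in M2 (adjusted p = 1.24e-09).

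Cell cycle genes moved in a mixed way. Of 30 tested 7 were higher in both states (Ccnd1, Ccne1, Cdkn1a, Mcm5, Pcna, Rrm2 and Tyms) and 1 lower (Cdkn1b). These shares of 23.3% and 3.33% stand against 9.96% and 10.3% of all genes. Mcm5, a subunit of the replicative helicase, had 12, 18.5, 14 and 12.8 CPM in M1, 15.6, 18.1, 15.6 and 14.7 CPM in M2, and 6.56, 7.75, 8.06 and 7.7 CPM in M0. For Mcm5 the log2 change was 0.92 ± 0.12 in M1 (edgeR adjusted p = 6.76e-08) and 1.09 ± 0.11 in M2 (adjusted p = 1.1e-08). Cdkn1b, the cell cycle inhibitor p27, averaged 18.5 ± 3.84 CPM in M1, 29.2 ± 1.58 CPM in M2 and 42.8 ± 0.991 CPM in M0. For Cdkn1b the log2 change was −1.20 ± 0.094 in M1 (edgeR adjusted p = 6.75e-12) and −0.55 ± 0.089 in M2 (adjusted p = 1.53e-05). The inhibitor genes moved both ways, with Cdkn1a (p21) up and Cdkn1b down.

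**Figure D4:**
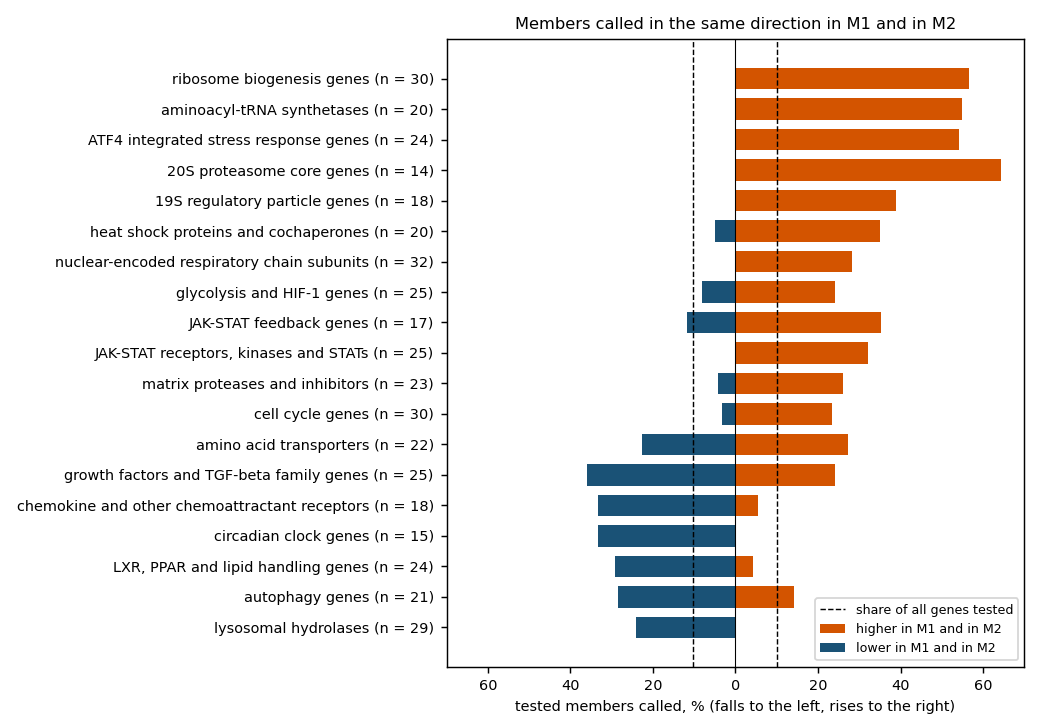
Share of tested members called higher (right, orange) or lower (left, blue) in both M1 and M2 for gene lists chosen after their counts were seen, with n the number of members tested and dashed lines at the share of all genes tested (9.96% higher, 10.3% lower). Ribosome biogenesis, tRNA synthetase, ATF4 and 20S core genes have the longest bars to the right and none to the left, while lysosomal hydrolases and clock genes extend to the left alone.

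A small set of genes changed by nearly the same amount in both states. Equal size was taken as a 95% interval of the M1 minus M2 log2 difference lying within 1.5-fold, among genes changed at least 2-fold in both. By this, 23 of the 197 rises and 11 of the 232 falls were equal. The rises with the largest change were Mmp13, Flt1, Tgm2, Ccl9, Tnip3, Plek, Zcchc2 and Gpc1, and the falls were Cd24a, Cdkn1c, Gngt2, Cped1, Cgn, Fam117a, Rsph9 and Atp8b4. Tgm2, transglutaminase 2, had 515, 684, 555 and 490.2 CPM in M1, 452, 521, 481 and 438 CPM in M2, and 103, 99.3, 98.5 and 95.1 CPM in M0. The M1 and M2 libraries overlapped, and the M1 minus M2 interval was 0.09 to 0.40. Plek, the protein kinase C substrate pleckstrin, averaged 1225 ± 238 CPM in M1, 1141 ± 50.7 CPM in M2 and 388 ± 22.6 CPM in M0, with an interval of −0.08 to 0.28. Ccl9, a chemokine, averaged 151 ± 15.5 CPM in M1, 121 ± 8.32 CPM in M2 and 28.6 ± 1.85 CPM in M0, with an interval of 0.09 to 0.55. Tnip3, a partner of the NF-κB inhibitor A20, averaged 41.4 ± 4.91 CPM in M1, 35.6 ± 1.97 CPM in M2 and 11.6 ± 1.46 CPM in M0, with an interval of −0.04 to 0.48. Among the falls, Cdkn1c, the cell cycle inhibitor p57, had 59, 49, 54.7 and 53.4 CPM in M1, 62.1, 57.8, 53.2 and 62.9 CPM in M2, and 169, 140.3, 159.9 and 147 CPM in M0, with an interval of −0.30 to 0.05. Atp8b4, a phospholipid transporting ATPase, averaged 33 ± 2.11 CPM in M1, 38.8 ± 2.02 CPM in M2 and 78.4 ± 4.67 CPM in M0, with an interval of −0.37 to −0.10.

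Genes of resident peritoneal macrophages did not move as 1 group. Of 21 tested, 3 (14.3%) were higher in both states (Adgre1, F10 and Thbs1) and 1 (4.76%) lower (Naip1), against 9.96% and 10.3% of all genes. Adgre1, which encodes F4/80, averaged 633 ± 27.4 CPM in M1, 241 ± 12.5 CPM in M2 and 186 ± 6.36 CPM in M0. For Adgre1 the log2 change was 1.76 ± 0.059 in M1 (edgeR adjusted p = 3.38e-20) and 0.37 ± 0.058 in M2 (adjusted p = 8.3e-06). F10, coagulation factor X, had 1845, 2170, 1768 and 1798 CPM in M1, 303, 313, 301 and 312 CPM in M2, and 112, 98.4, 103 and 111 CPM in M0. For F10 the log2 change was 4.16 ± 0.065 in M1 (edgeR adjusted p = 2.54e-27) and 1.53 ± 0.059 in M2 (adjusted p = 1.64e-17). The order was M1, M2, M0 in all its libraries. Gata6, the transcription factor of the resident cells, averaged 11.6 ± 1.06 CPM in M1, 30.2 ± 2.62 CPM in M2 and 26.5 ± 3.34 CPM in M0 and was not common. Timd4, the phosphatidylserine receptor TIM-4, averaged 10.2 ± 1.36 CPM in M1, 0.295 ± 0.232 CPM in M2 and 0.18 ± 0.175 CPM in M0, Klf2 averaged 6.09 ± 0.521 CPM in M1, 4.04 ± 0.531 CPM in M2 and 6.42 ± 0.596 CPM in M0 and Klf4 18.2 ± 1.63 CPM in M1, 52.8 ± 4 CPM in M2 and 17.4 ± 1.26 CPM in M0, and none of these was common; Timd4 was called without M0 replicate 1.

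Markers of other cell types were checked as whole lists. The 12 mesothelial and fibroblast markers were all tested and summed to 787 to 987 CPM in M1, 803 to 995 CPM in M2 and 826 to 1083 CPM in M0; 3 of them (Lum, Pdgfra and Upk3b) were lower in both states and 0 higher. The neutrophil genes Ly6g, S100a9 and Retnlg, the eosinophil gene Epx, the NK cell gene Ncr1 and the red cell gene Hba-a1 had no count in any of the 12 libraries, which allows up to 3 counts in each at 95% confidence. The summed levels of the mesothelial list overlapped in all 3 states, but those of other lists differed. The 12 neutrophil markers summed to 141 to 161 CPM in M1, 69.7 to 71.9 CPM in M2 and 49.1 to 58 CPM in M0, of which Csf3r made up on average 138 CPM in M1, 60.9 CPM in M2 and 44 CPM in M0. Csf3r, the G-CSF receptor, was higher and Cxcr2 lower in both states. The 17 T and NK cell markers summed to 19 to 25 CPM in M1, 2.7 to 3.95 CPM in M2 and 3.86 to 4.93 CPM in M0, with Lck at a mean of 19.2 CPM in M1, 1.67 CPM in M2 and 2.24 CPM in M0. The 9 dendritic cell markers summed to 11.8 to 14.7 CPM in M1, 33.1 to 36.3 CPM in M2 and 7.19 to 9.37 CPM in M0, with Batf3 at a mean of 1.47 CPM in M1, 29.6 CPM in M2 and 3.75 CPM in M0. The 7 endothelial markers summed to 29.6 to 39 CPM in M1, 5.16 to 6.65 CPM in M2 and 10.7 to 14.1 CPM in M0, with Kdr at a mean of 30.8 CPM in M1, 4.77 CPM in M2 and 11.7 CPM in M0. The 11 mast cell and basophil markers summed to 20.6 to 31.5 CPM in M1, 6.15 to 7.7 CPM in M2 and 3.57 to 5.55 CPM in M0, with Hdc, which makes histamine and was higher in both states, at a mean of 23.1 CPM in M1, 4.49 CPM in M2 and 1.71 CPM in M0. The 6 eosinophil markers summed to 8.41 to 9 CPM in M1, 17.2 to 19.3 CPM in M2 and 16.6 to 19.3 CPM in M0, and the 10 erythroid and platelet markers to at most 1.04 CPM in any library. For the neutrophil, T and NK cell, endothelial, and mast cell and basophil lists, the 1 gene named made up most of the sum in M1. The part of these markers in the common rises and falls was not tested.

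The 12 libraries with ONX-0914 gave the same measure in cells that did not enter the contrasts used to choose the genes. They shared the filter and the dispersion fit with the other libraries, so they are not fully separate from the choice. With the 12 libraries without inhibitor alone, 1154 common rises and 1277 common falls were called. In them, 2121 genes (14.4%) were higher in both M1 and M2 than in M0, all 3 with inhibitor, and 1953 (13.3%) were lower. Of the 1464 common rises, 1080 (73.8%) were also common rises with ONX-0914, which is 50.9% of the rises with ONX-0914. Of the 1515 common falls, 1102 (72.7%) were also common falls, which is 56.4% of the falls with ONX-0914. Among those of at least 2-fold in both states without inhibitor, 149 of 197 rises and 186 of 232 falls were called again. Mmp13 had log2 changes of 5.11 ± 0.11 in M1 (edgeR adjusted p = 2.39e-24) and 5.23 ± 0.11 in M2 (adjusted p = 3.52e-23) with ONX-0914, and Cd24a had −2.17 ± 0.083 in M1 (edgeR adjusted p = 7.49e-19) and −2.61 ± 0.085 in M2 (adjusted p = 5.39e-19). The lists differed. All 17 ribosome biogenesis genes, all 11 synthetases, all 13 ATF4 targets and all 9 core proteasome genes were called higher again. All 6 chemoattractant receptors were called lower again, as were 6 of 7 lipid handling genes and 6 of 7 lysosomal hydrolases. Fewer were called again for other lists: 2 of the 7 cell cycle rises, and 2 of 6 autophagy, 3 of 5 clock and 1 of 3 NRF2 antioxidant falls. Whether the changes differ with and without ONX-0914 was not tested, so a call missing with the inhibitor is not a difference shown.

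**Figure D5:**
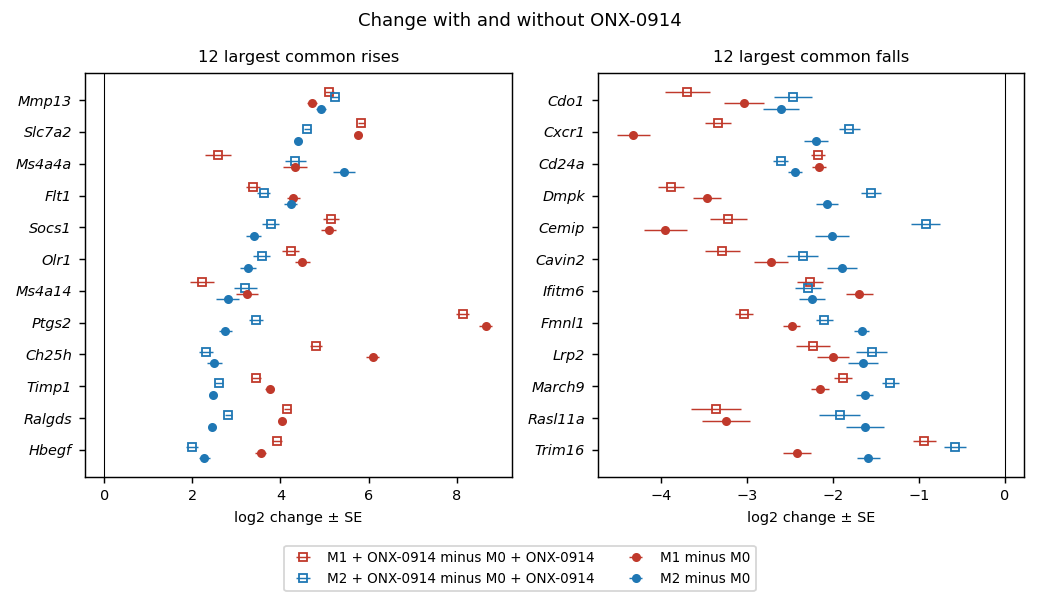
Log2 change against M0 of the 12 largest common rises (left) and falls (right): open squares for the libraries with ONX-0914, filled circles for those without, M1 in red and M2 in blue. All changes with the inhibitor keep the sign of those without it; Ms4a4a is lower in the M1 libraries with ONX-0914, and Trim16 lies nearer 0 in both states.

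Of the common rises, 4 were common falls in the libraries with ONX-0914, namely P2rx7, Btk, Cd300lf and Slc16a6, and 12 of the common falls were common rises there, the heat shock genes Dnajb4 and Hspb8 among them. These were named after their values were seen. P2rx7, an ATP-gated ion channel, had 51, 50.6, 55.7 and 55 CPM in M1 with ONX-0914, 50, 54, 55.9 and 50.8 CPM in M2 with ONX-0914, and 63.7, 67.1, 66.6 and 58.9 CPM in M0 with ONX-0914. Without the inhibitor it had 105, 111, 105 and 104 CPM in M1, 80.8, 79.9, 88.3 and 83.4 CPM in M2, and 65.1, 74, 73.1 and 71.5 CPM in M0. Among the 3 states, the M0 libraries were the highest with the inhibitor and the lowest without it. For P2rx7 the log2 change was −0.27 ± 0.056 in M1 (edgeR adjusted p = 0.000109) and −0.28 ± 0.056 in M2 (adjusted p = 0.000186) with ONX-0914 and 0.58 ± 0.055 in M1 (edgeR adjusted p = 3.87e-10) and 0.23 ± 0.055 in M2 (adjusted p = 0.00165) without it. Btk, a tyrosine kinase, had log2 changes of −0.20 ± 0.048 in M1 and −0.15 ± 0.047 in M2 with ONX-0914 and 0.14 ± 0.048 in M1 and 0.18 ± 0.047 in M2 without it. The values for Slc16a6, a monocarboxylate transporter family member, were −0.48 ± 0.10 in M1 and −0.25 ± 0.10 in M2 with ONX-0914 and 0.55 ± 0.094 in M1 and 0.54 ± 0.092 in M2 without it. Cd300lf, an inhibitory surface receptor, had −0.70 ± 0.14 in M1 and −0.58 ± 0.13 in M2 with ONX-0914 and 0.34 ± 0.13 in M1 and 0.52 ± 0.13 in M2 without it, and its call without inhibitor was lost without M0 replicate 1, M0 replicate 4, M1 replicate 2 or M1 replicate 3.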

How the data were processed

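Messenger RNA of 24 libraries was sequenced, and 12 of them (M1, M2 and M0, 4 each) carry the contrast. The authors deposited raw counts per Ensembl gene, without normalization. FastQC 0.11.9, cutadapt 2.8, Bowtie2 2.2.5, Picard and build mm10 are named in the submitters' processing notes, without their order. No counting tool, strand setting or annotation release is named in the sources used here. GENCODE M21 (GRCm38) gave symbols for 54409 of the 54532 features and their positions; the other 123 kept their ID alone.

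The tests ran in edgeR 4.0.16 under R 4.3.3. filterByExpr over the 6 groups kept 14692 genes with 99.927% of the counts, TMM scaled the libraries, and 1 quasi-likelihood fit over all 24 libraries (18 residual degrees of freedom, no replicate block) gave every p, adjusted by Benjamini-Hochberg over all genes. Log2 changes are given ± SE, where the SE is the change over the root of F. CPM values are given as mean ± SD over 4 libraries (n = 4 each). p-values measure the spread between these pooled libraries.

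Named genes are the 12 largest common rises and falls with at least 5 CPM and no overlap between libraries, up to 3 per list, the 8 of most equal size in each direction, and a fixed set taken whatever its result; exceptions are stated where they occur, and 1 named gene is not reported here. The genes and the 49 lists were chosen with earlier results of these data known. Alternatives were DESeq2 1.42.0 size factors and Wald test, limma 3.58.1 voom, other filters, the 12 libraries alone, a least log2 change of 1, a replicate block, and the fit without each library. The pipeline was tested on simulated data. Floors cover counting error only.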

Additional observations from a re-analysis of the deposited data

Results flagged for a closer look

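Each of the 121 named genes was screened in the 4 libraries of M1, of M2 and of M0 for a library far from the other three of its state, by the gap to its nearest neighbour over the range of the group, against Dixon's critical value for 4 samples at 95%. Of the 363 gene and state pairs 27 stood out, and chance gives about 1 in 20 groups. Of these, 12 were M1 replicate 2, the library with a low mitochondrial share. Its level was below the other M1 libraries for Mmp13 (80.8 against 118 to 126 CPM), Jak2 (400 against 595 to 609 CPM), Rel (65.8 against 102 to 104 CPM) and Hpgds (30.4 against 43.4 to 44.6 CPM). It was above them for Rrp9 (35.1 against 21.7 to 23 CPM), Psmb9 (286 against 208 to 211 CPM), Sqstm1 (1810 against 1480 to 1510 CPM), C5ar1 (33.2 against 23.2 to 24.3 CPM), Tyrobp (599 against 424 to 439 CPM), Trem2 (620 against 473 to 487 CPM), Fabp5 (1450 against 1160 to 1200 CPM) and P2rx7 (111 against 104 to 105 CPM). Cycs was high in M1 replicate 1, at 183 CPM.

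In M2, Cdo1 was high in replicate 1 (1.42 CPM), Nos2 in replicate 1 (0.0459 CPM, 0 in the others), Ccl9 in replicate 2 (133 CPM), Gas6 in replicate 2 (30 CPM) and Slc7a5 in replicate 3 (41.2 CPM), and Psmb8 was low in replicate 3 (46 CPM). In M0, replicate 4 was low for Cd24a (84.1 CPM), Nos2 (0.0414 CPM) and Psmb9 (14.5 CPM) and high for Csf2rb (771 CPM). The Nos2 flags in M2 and M0 lie near the floor, where single counts and library depth set the CPM. Stat6 was low in M0 replicate 1 (212 CPM), Cxcr3 high in M0 replicate 2 (2.26 CPM), Rel low in M0 replicate 3 (33.1 CPM) and Dbp high in M0 replicate 3 (5.02 CPM).

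P2rx7 and Btk moved in opposite directions with and without ONX-0914. For both genes all 8 M1 and M2 libraries lay below all 4 M0 libraries with the inhibitor and above them without it. The log2 change of the mean of M1 and M2 against M0 was −0.278 with and 0.405 without ONX-0914 for P2rx7, and −0.173 with and 0.157 without it for Btk. The difference itself was not tested.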

How the results depend on the processing

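At a minimum log2 change of 1 the counts fell to 197 common rises and 232 common falls, to 1078 rises and 1039 falls for the mean of M1 and M2 against M0, to 119 rises and 157 falls also called with ONX-0914, and to 202 common genes with a called M1 minus M2 difference, against 1464, 1515, 4466, 4095, 1080, 1102 and 2001 without a minimum; a minimum leaves fewer genes by construction. All other alternatives kept these counts within 1.5 times. The common rises and falls were 1335 and 1617 with DESeq2 size factors, 1368 and 1647 with the DESeq2 Wald test, 1833 and 1837 with limma voom, 1236 and 1468 with no filter, 1250 and 1624 at 1 CPM in 4 libraries, and 1154 and 1277 with the 12 libraries alone. Leaving out 1 library gave 1208 to 1817 common rises, 1345 to 1771 common falls, 4192 to 4845 rises and 3832 to 4354 falls for the mean, 906 to 1374 rises and 984 to 1255 falls also called with ONX-0914, and 1721 to 2471 called M1 minus M2 differences; every highest count came without M1 replicate 2. The replicate numbers did not pair the libraries: same-numbered libraries had correlations of −0.05 to 0.11 and 5 of 12 correlated best with their own number. With a replicate block there were 1481 common rises, 1531 common falls and 4456 and 4114 for the mean. Of 121 named genes followed, 8 gained or lost the common call under another alternative, 0 reversed, and 50 lost it at the minimum log2 change of 1. A library without a count of a gene allows up to 3, so low genes such as Cx3cr1 and Cxcr3 rest on few counts.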

Other observations

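Other gene groups held common members as well, to be read beside 9.96% higher and 10.3% lower over all genes tested. MHC class II genes included 3 common rises of 12 tested (Ciita, H2-DMa and H2-DMb1) and 0 falls, and none of these rises was called again with ONX-0914. MHC class I presentation genes had 3 of 15 (Erap1, H2-Q6 and Tapbpl) and 0 falls. Ciita, the regulator of class II transcription, had log2 changes of 4.43 ± 0.17 in M1 and 1.04 ± 0.21 in M2. Of 27 integrins and adhesion genes 6 were higher in both and 4 lower; Vcam1, an endothelial and macrophage adhesion molecule, had log2 changes of 3.94 ± 0.10 in M1 and 0.58 ± 0.10 in M2, and Itga1, an integrin that binds collagen, had −1.42 ± 0.19 in M1 and −0.73 ± 0.17 in M2.

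Of 22 NADPH oxidase, prostaglandin and leukotriene genes 5 were higher in both (Ncf4, Pla2g4a, Ptges, Ptgis and Ptgs2) and 2 lower (Alox5ap and Hpgds). The phospholipase Pla2g4a, which releases arachidonic acid, had log2 changes of 1.44 ± 0.077 in M1 and 0.58 ± 0.078 in M2, and Alox5ap, the 5-lipoxygenase activating protein, had −1.29 ± 0.093 in M1 and −0.54 ± 0.087 in M2. Of 22 macrophage lineage transcription factors 4 (18.2%) were higher (Id2, Mitf, Nr1h3 and Runx1) and 2 (9.09%) lower (Bhlhe41 and Id3). The shares over all genes were 9.96% and 10.3%. Of 19 purinergic, adenosine and cyclic AMP genes 4 were higher and 1 lower, among them Adora2b, the low-affinity adenosine receptor, with log2 changes of 1.78 ± 0.22 in M1 and 1.43 ± 0.22 in M2. These groups were chosen after their counts were seen.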
